A study of Mus musculus with 13 samples.

Results

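Untreated 4T1 cells were described by the level and rank of every gene listed for them. 4T1 is a carcinoma cell line from the mammary gland of a BALB/c mouse that is widely used as a model of triple negative breast cancer, and the line used was 4T1-Thy1.1, which carries a Thy1.1 transgene as a surface mark. The promoter of the transgene and whether the line is a single clone are not given in the sources used here. The study set control cells beside cells given doxorubicin, IL-17A or both for 48 hours, and the 3 control libraries of 13 in all (replicates 1, 3 and 5 by their labels) were taken, with no comparison between control and treated cells. The labels give DMEM/F12 with serum as the medium while the methods of the study give RPMI with serum, and whether controls received a vehicle is not given. The methods of the study speak of biological replicates in general, and whether the 3 samples came from separate cultures is not given.

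RNA was sequenced from the 3′ end of polyadenylated transcripts, which yields about 1 fragment per transcript, so levels were not divided by transcript length. Whether the reads of every gene were assigned to it alike was not tested. Differences in level between genes, and low levels of a gene, are therefore those of the signal. Levels are given as TMM-normalized signal (reads on a gene relative to a scaled library size), in units. The table of all 13 libraries lists 13222 genes, and how they were chosen is not given in the sources used here. Of these, 335 were at 0 in all 3 control libraries, so the list was not limited to genes read in control cells. Ranks, medians and percents over all genes are those among listed genes and depend on that choice. Replicate 1 had 6583757 reads on the listed genes, replicate 3 had 16930600 and replicate 5 had 8825324. A single read was worth 0.169 units in replicate 1, 0.0609 in replicate 3 and 0.118 in replicate 5. The floor was set at 3 reads, or 0.508, 0.183 and 0.354 units, and it allows for counting error alone, as several reads may be copies of the same molecule. Below, 3 values in a row are those of replicates 1, 3 and 5 in that order, a mean is given ± SD (n = 3), and ranks run from 1 for the highest mean to 13222. Beside a printed mean, the mean without replicate 1 is given where both differ by over 1.5 times.

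Triple negative breast tumors lack the estrogen receptor, the progesterone receptor and excess of the ERBB2 receptor, so hormone or ERBB2 directed drugs have no target in them. Carcinoma cells come from epithelium, whose cells are held together by keratin filaments, desmosomes and tight junctions, and some take up properties of mesenchymal cells such as vimentin filaments and migration. 4T1 cells form metastases in mice with an intact immune system, and tumors of the line draw in many myeloid cells.

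Replicate 1 stood apart from the other control libraries. Across 13222 genes the Pearson correlation of log2(value + 1) was 0.903 between replicates 1 and 3, 0.923 between replicates 1 and 5 and 0.982 between replicates 3 and 5, as a description across genes, which are not independent replicates. Of the 100 most abundant genes of each library, replicates 3 and 5 shared 93, while replicate 1 shared 61 with replicate 3 and 62 with replicate 5. Chi-square of the reads divided by its degrees of freedom was 177 (replicates 1 and 3), 116 (1 and 5) and 24.8 (3 and 5), a description that takes reads as independent. The 3 libraries were treated as separate samples, as labeled. Replicate 1 also had the fewest reads and the most genes at 0, with 1297 against 684 in replicate 3 and 707 in replicate 5. The part of depth or handling in these differences was not tested.

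**Figure D1:**
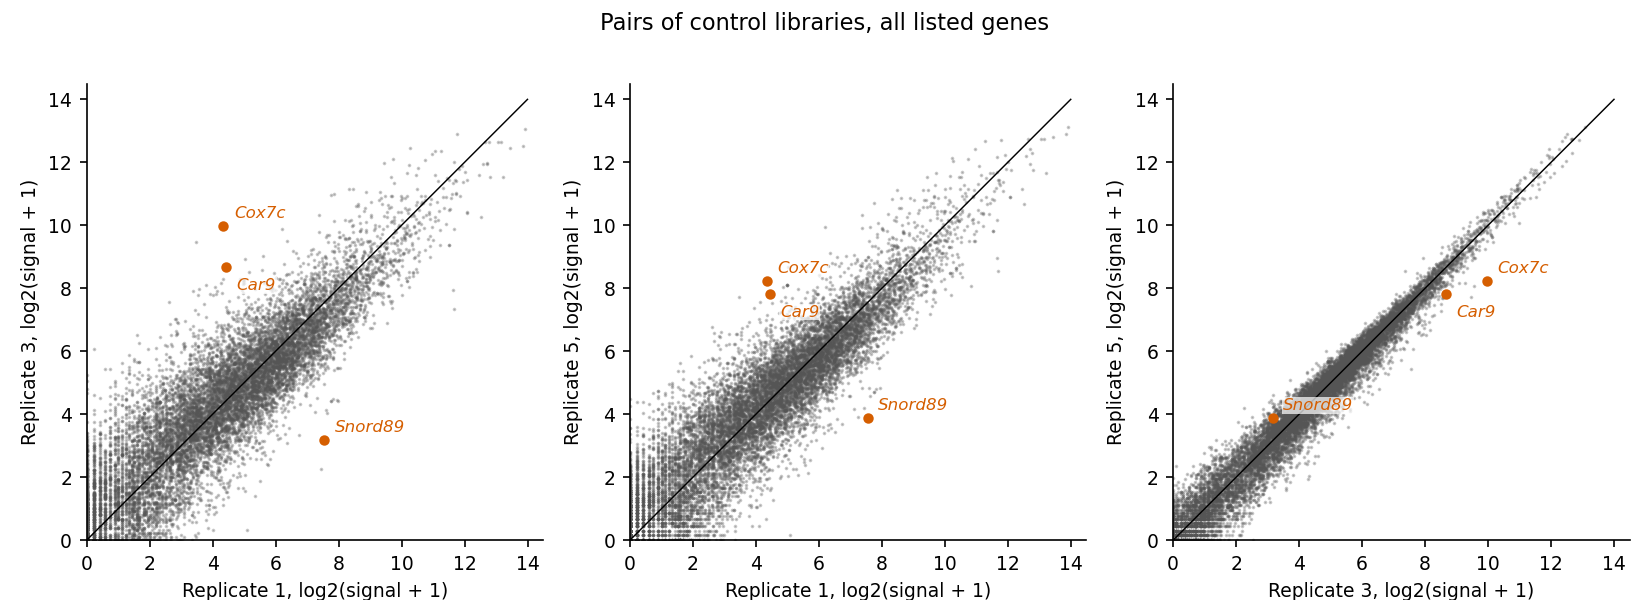
Each panel plots log2(signal + 1) of all 13222 genes in 1 control library against another, 1 gray point a gene, with the line of equal values and *Car9*, *Cox7c* and *Snord89* marked in orange. Points lie close to the line between replicates 3 and 5 and scatter widely in both panels that hold replicate 1.

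The label of the line was checked first. *Thy1*, the surface protein whose 1.1 form marks the line, was at 179, 78.8 and 79.9 units (112 ± 57.3, rank 1814). It was above the median of all genes (17.7 units) in each library. The table has a single entry for the gene, and the transgene and the cell's own allele cannot be told apart in it.

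Keratin genes of luminal mammary epithelium were abundant. *Krt7*, which with *Krt8*, *Krt18* and *Krt19* builds the filaments of simple epithelium, was at 693, 547 and 581 units (607 ± 76.4, rank 273). *Krt8* was at 329, 419.9 and 472 units and its partner *Krt18* at 342, 296 and 352 units. *Krt19* was lowest of these at 119, 225 and 255 units, and the median of the 4 listed keratins of this kind was 368 units. Basal keratins stood far lower. *Krt14* was at 38.6, 41.0 and 43.6 units, *Krt15* at 10.3, 7.37 and 9.67 units, and *Krt5* and *Krt17* were at or near 0, with 0, 0.609 and 0 units for *Krt5* and 0, 0.365 and 0 units for *Krt17*. The smooth muscle genes that mark myoepithelial cells were low as well, with *Acta2* at 12.9, 0.548 and 1.18 units (mean 4.86, or 0.863 without replicate 1) and *Myh11* at 0.338, 0 and 0 units. *Trp63*, *Krt6a*, *Krt6b* and *Cnn1* of the basal list were not analysed here. The integrin chains *Itga6* and *Itgb4*, which anchor epithelium to the basement membrane at hemidesmosomes, had levels of 453, 125 and 168 and of 79.8, 105 and 74.6 units. They were the most abundant members of the basal list.

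Most markers of other cell types were low. In bulk RNA, fewer cells of a type and less RNA per cell cannot be told apart. Of 22 immune cell markers 8 were listed, with summed levels of 21.1, 21.2 and 21.6 units. *Csf1r*, the receptor for colony-stimulating factor 1, made up most of each sum at 16.7, 14.1 and 16.1 units. *Cd68*, a lysosomal protein of macrophages, was at 0, 6.27 and 4.13 units, and *Ptprc*, the pan-leukocyte antigen CD45, was at 1.52, 0.0609 and 0.471 units. Of 9 endothelial markers *Tie1* alone was listed, at 0.846, 0.670 and 0.471 units. *Fabp4*, the sole listed member of 7 adipocyte markers, was at 0, 0.244 and 0 units, and *Alb*, the sole listed member of 6 liver markers, was at 0 in all 3 libraries. Fibroblast markers had 6 of 9 members listed and summed to 145, 48.5 and 51.3 units. Their most abundant gene by the mean was *Pdgfra*, a platelet-derived growth factor receptor, at 15.4, 25.1 and 30.1 units. *Dcn*, a proteoglycan of connective tissue, was at 0.169, 0.304 and 0.236 units. The collagen chain genes *Col1a1* (44.7, 11.1 and 11.6 units) and *Col3a1* (45.2, 4.93 and 4.60 units) were higher in replicate 1.

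Muscle and red blood cell genes were low and uneven. All 10 muscle markers were listed and summed to 39.2, 14.9 and 5.19 units, with skeletal actin *Acta1* highest at 16.6, 3.47 and 2.95 units (mean 7.67, or 3.21 without replicate 1). Red blood cell markers had 3 of 6 members listed and summed to 14.4, 7.18 and 0.943 units. The alpha globin gene *Hba-a2* led at 9.14, 4.81 and 0 units, although most of its 3′ end is shared with *Hba-a1* (75.3% of windows). These sums were highest in replicate 1, and their part in how that library stands apart was not tested.

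The most abundant transcript by the mean was *Hsp90ab1*, the constitutive cytosolic HSP90 chaperone, at 15352, 8600.2 and 9004 units. *Actb*, the cytoskeletal beta actin, followed at 14799, 5806 and 7633 units. Ribosomal protein genes filled most of the next ranks, and 17 of the 30 most abundant genes and 45 of the 100 most abundant belonged to this family of 84. *Rpl41* was at 11156, 5629 and 7183 units and *Rpl6* at 9070.5, 6464 and 6828 units. Among the steadiest of the leading genes was *Rplp1*, an acidic protein of the ribosomal stalk, at 6558 ± 251 units, while *Rps26* was lower in replicate 1 than in the others, with 3499, 7625 and 6623 units. *Npm1* (7299.6 ± 1105 units) and *Ncl* (3688 ± 1758 units), nucleolar proteins of ribosome assembly, ranked 5 and 21. *Pabpc1*, which binds poly(A) tails, was at 6175 ± 1043 units and the translation factor *Eef1a1* at 1237, 5647 and 4204 units. *Ptma*, the small acidic chromatin protein prothymosin alpha, was highest in replicate 1 at 9486, 2987 and 3248 units (mean 5240.3, or 3117 without it). The stress-inducible partner of the leading chaperone, *Hsp90aa1*, was at 6677, 3993 and 3915 units (rank 12). *Malat1*, a nuclear long noncoding RNA, was the sole such RNA among the 30 most abundant genes, at 2158, 5199.5 and 3779 units (rank 19). *S100a6*, a small calcium-binding protein, had 3271 ± 543 units and *Serbp1*, an mRNA-binding protein of ribosomes, had 2959 ± 308 units.

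Levels declined smoothly with rank. The gene at rank 100 had a mean of 1367 units and the gene at rank 1000 had 199 units. In all 3 libraries 10323 genes (78.1%) were at 1 unit or more, 6797 (51.4%) at 10 or more, 1506 (11.4%) at 100 or more and 91 (0.688%) at 1000 or more. In replicates 3 and 5 alone these numbers were 10927, 7648, 1853 and 133. At the low end 335 of the listed genes were at 0 in all 3 libraries, and 11097 had at least 3 reads in each.

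**Figure D2:**
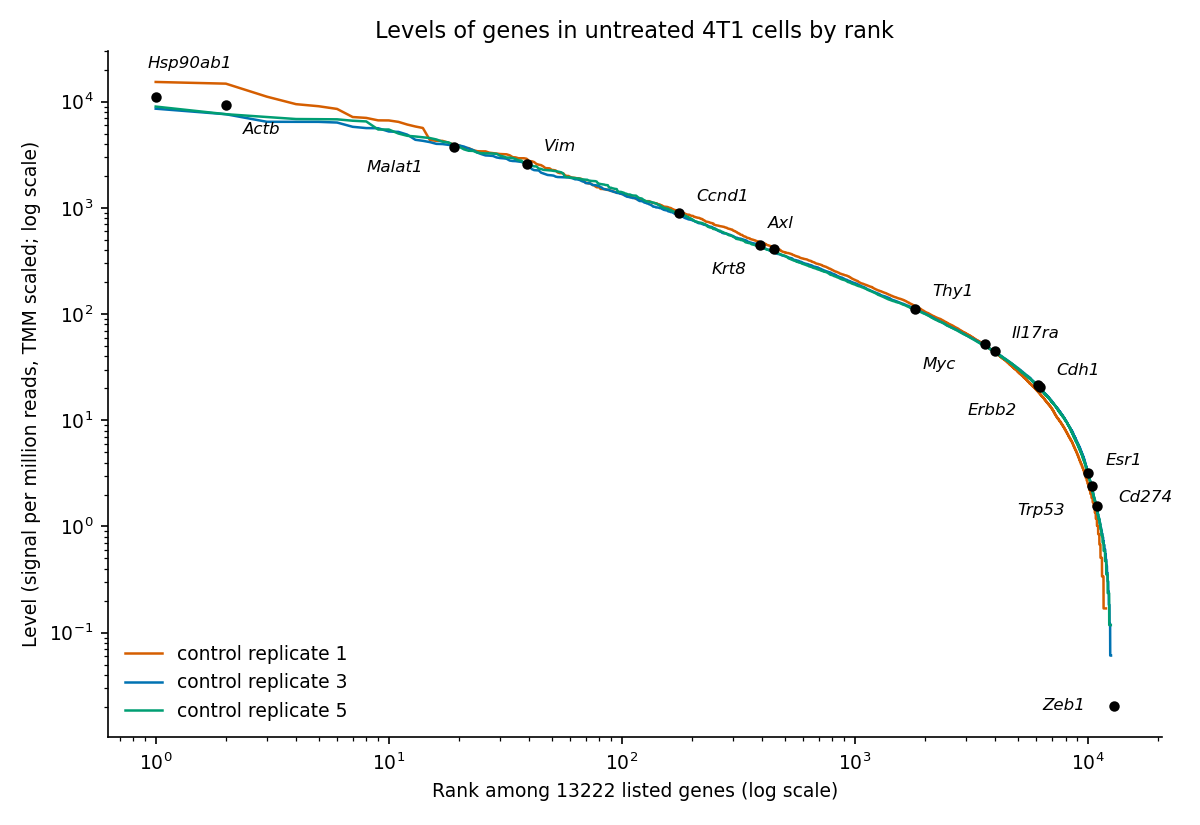
Lines show the level (log axis, units) of genes ordered within each control library against their rank (log axis), 1 color for each of replicates 1, 3 and 5, and black points show the mean level of selected genes at their rank by the mean. The points run from *Hsp90ab1* at 10986 units to *Zeb1* at 0.0203 units, and the lines lie close together except at the highest and lowest ranks.

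The 10 most abundant genes of each library held 8.62%, 6.24% and 6.58% of its signal, the 100 most abundant 28.6%, 26.4% and 27.5%, and the 1000 most abundant 65.7%, 63.2% and 64.0%. Ribosomal protein genes took 12.6%, 16.1% and 17.5%. Nuclear genes of the respiratory chain, which passes electrons to oxygen in mitochondria, were taken by name (*Nduf*, *Uqcr*, *Cox* and *Atp5* genes). These names also cover ATP synthase and assembly factors. The family took 1.15%, 1.47% and 1.42% with 90 genes, close to the 1.072%, 1.131% and 1.344% of 21 glycolysis genes. Proteasome genes took 0.845%, 0.638% and 0.620%. Histone genes were higher in replicate 1, with 0.802% against 0.221% and 0.287%. The most abundant of them, *Hist1h2ap* (2936, 663 and 910.4 units) and *Hist1h2ao*, were within 1% of each other in every library, as were pairs among *Rps12-ps11* to *Rps12-ps15*, and whether the same reads were counted for several genes was not tested. Genes typed as pseudogenes in RefSeq took 6.15%, 5.53% and 6.07%, long noncoding RNAs 1.216%, 1.301% and 1.203%, and small nucleolar RNAs 0.375%, 0.0347% and 0.0623%, shares by type that were added after the data were seen. *Snord13* held most of the small nucleolar RNA signal, at 3197, 245 and 498 units (mean 1314, or 372 without replicate 1). Libraries were made from polyadenylated transcripts, and how well histone and small nucleolar RNA signal follows the amounts of these RNAs was not tested. Genes encoded in mitochondrial DNA were not analysed here.

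**Figure D3:**
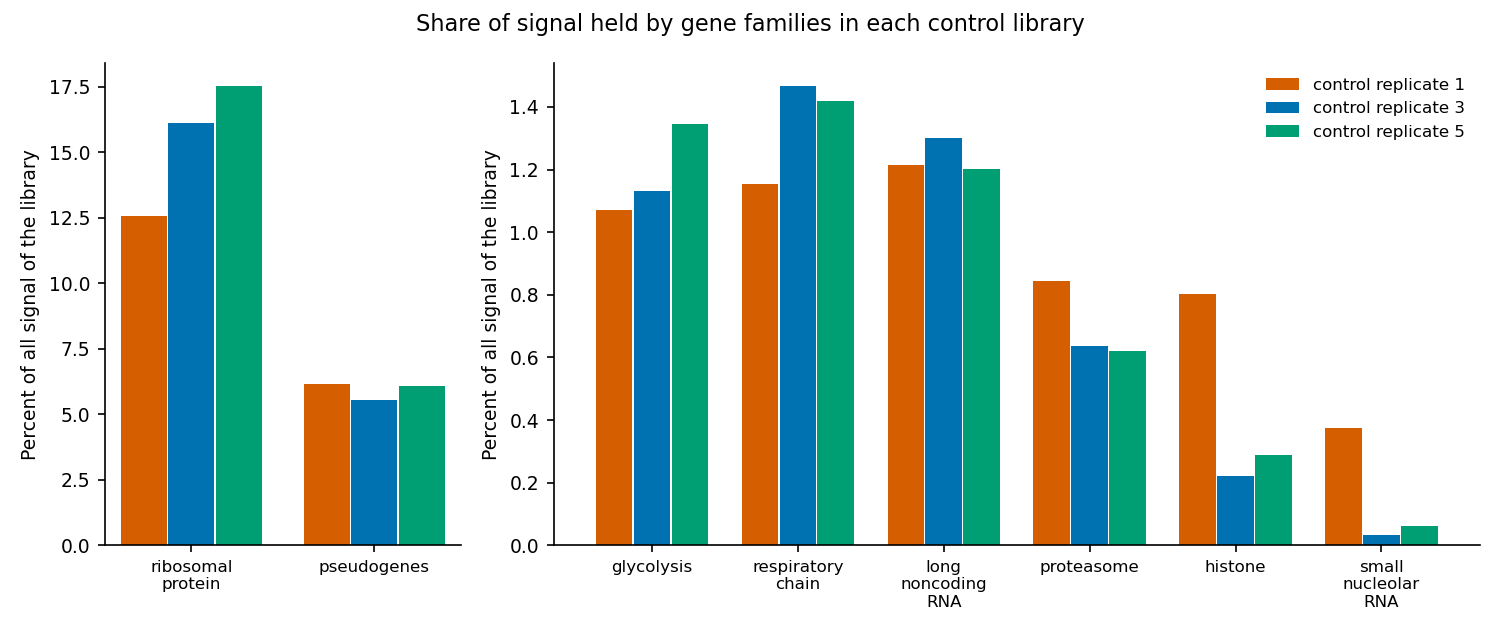
Bars show the percent of each control library's signal held by gene families, with 1 bar for each of replicates 1, 3 and 5. Ribosomal protein genes hold 12.6% to 17.5%, and histone and small nucleolar RNA genes hold more in replicate 1 than in the others.

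Of 45 gene lists, 27 had a median above the 17.7 units of all genes. Luminal keratins had the highest median (368 units), and the medians of glycolysis (190 units), hypoxia (121 units) and proliferation genes (112 units) were also high. Cytokine receptors (7.93 units), interleukins and related ligands (7.11 units) and chemokines (2.96 units) lay under it. Genes of the lists were named by rank within their list, and *Krt5*, *Krt17*, *Hist1h2ap*, *Hist1h2ao*, *Rps12-ps11*, *Rps12-ps15*, *Snord13*, *Cdh1*, *Cldn3*, *Cldn7*, *Foxa1*, *Esrp1*, *Csn3*, *Prlr*, *Zeb2*, *Twist1*, *Snai1*, *Egfr*, *Erbb3*, *Il4ra*, *Il22ra1*, *Cxcr2*, *Cxcl2*, *Csf3*, *Il6*, *Tnf*, *Vegfa*, *Tgfb3*, *Tgfb1*, *Igf1*, *Hmga2*, *Nras*, *Myc*, *Cdkn1a*, *Mcm2*, *Hk2*, *Gapdh*, *Fasn*, *Cpt1a*, *Phgdh*, *Hif1a*, *Mmp14*, *H2-K1*, *Abcb1b*, *Abcb1a* and *Actg1* were chosen after their values were seen.

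**Figure D4:**
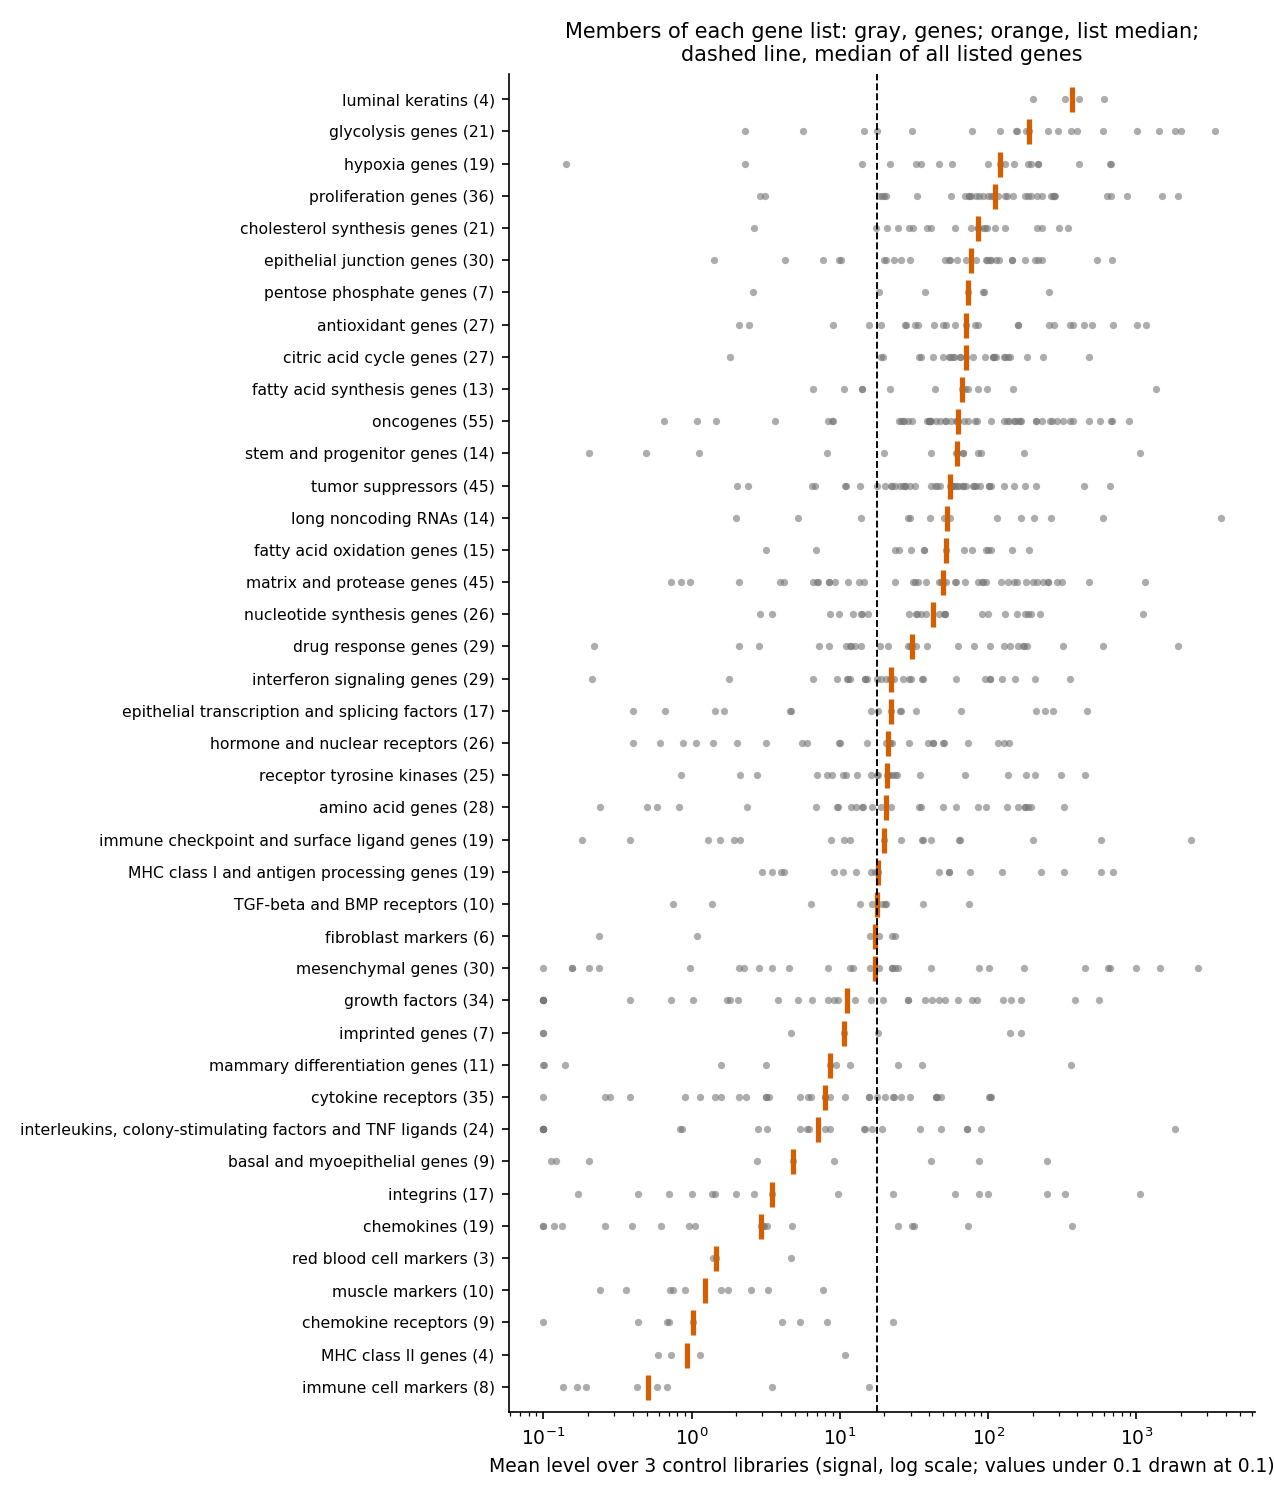
Each gray point is the mean level of a list member over the 3 control libraries (log axis, units, values under 0.1 drawn at 0.1), with an orange bar at the median of the list, the number of listed members in parentheses and a dashed line at the median of all genes. The median is 368 units for luminal keratins, 190 units for glycolysis genes and 2.96 units for chemokines.

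Genes of epithelial junctions were mostly well expressed, with a median of 77.0 units over 30 listed members of 32. *Ctnnb1*, the beta catenin that links cadherins to actin and carries Wnt signals, was at 419, 757 and 867 units. *Epcam*, an adhesion molecule of epithelium, was at 733, 432 and 453 units (rank 329). The desmosome gene *Dsp* was at 292, 154 and 204 units and its partner *Pkp3* at 367, 133 and 125 units. *Cdh1*, the E-cadherin gene, was much lower than the catenins it binds, at 32.7, 11.6 and 17.1 units (rank 6197). The tight junction genes *Cldn3* (55.1, 185 and 191 units) and *Cldn7* (108, 42.4 and 61.9 units) differed in which library was highest, with replicate 1 lowest for *Cldn3* and highest for *Cldn7*. *Cldn6* was the lowest of the list at 0.508, 2.19 and 1.53 units.

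Among transcription factors of epithelium, *Sox4* led at 377, 604 and 414 units, followed by *Klf5* at 250.03, 336 and 234 units. *Gata3*, which directs luminal mammary fate, was at 319, 202 and 205 units, and *Sox9*, a factor of progenitor cells, at 211, 237 and 178 units. *Elf5* and *Sox10* were not analysed here. *Foxa1*, a partner of the estrogen receptor on chromatin, was low at 0.169, 3.65 and 0.471 units. The splicing factor *Esrp1*, which sets epithelial isoforms, was at 43.6, 14.7 and 18.5 units. Of the genes of mammary differentiation, *Mfge8*, a milk fat globule protein, was highest at 662, 189 and 233 units (mean 361, or 211 without replicate 1). The casein gene *Csn3* was at 0, 0.183 and 0.236 units and *Prlr*, the prolactin receptor, at 0 in all 3 libraries. *Ltf*, the gene for lactoferrin, was at 0, 0.304 and 0 units. The milk protein genes *Csn1s1*, *Csn1s2a*, *Csn2*, *Wap* and *Lalba* of the list were not analysed here.

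Mesenchymal genes covered a wide range, with a median of 17.1 units over 30 listed, 8 of them at 100 units or more and 6 below 1 unit. *Vim*, the intermediate filament of mesenchymal cells, was at 2119.6, 3107 and 2559.7 units (rank 39). The actin-binding genes *Cald1* (1449 ± 262 units) and *Tpm1* (990.4 ± 31.9 units) and the matrix gene *Fn1* (663 ± 35.1 units) were high too. *S100a4*, a calcium-binding protein tied to metastasis, was at 767, 555 and 593 units, although 48.1% of its 3′ windows also occur in other genes. The factors that repress epithelial genes differed in level. *Zeb1* had 1 read in replicate 3 and none in the others, while *Zeb2* was at 48.6, 12.5 and 12.5 units. *Twist1* was at 25.0, 17.8 and 24.9 units and *Snai1* at 4.06, 19.8 and 12.7 units. *Cdh2* and *Snai2* were not analysed here. Among stem and progenitor genes *Itgb1* was highest at 1195, 929 and 1068 units and *Cd44*, a hyaluronan receptor, was at 88.5, 238 and 198 units. *Nes*, an intermediate filament of progenitors, was at 91.0, 91.1 and 74.3 units, and *Id2*, an inhibitor of basic helix-loop-helix factors, at 58.7, 82.9 and 127 units. *Aldh1a1*, an aldehyde dehydrogenase used to mark stem cells, was at 0, 0.609 and 0 units.

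Hormone and nuclear receptors had a median of 21.1 units over 26 listed members of 33, beside 17.7 units over all genes. *Esr1*, the estrogen receptor, was low at 1.02, 5.05 and 3.42 units (rank 10039), from 6 reads in replicate 1 to 83 in replicate 3. *Pgr*, the progesterone receptor, was not analysed here, and neither was *Esr2*. *Erbb2* was at 25.7, 14.9 and 23.2 units (21.3 ± 5.65, rank 6095), near the middle of all genes. Several other nuclear receptors stood higher, led by the orphan receptor *Nr2c2* at 232, 81.2 and 99.0 units and the retinoic acid receptor *Rarg* at 169.8, 105 and 106 units. *Nr2f2*, also known as COUP-TFII, varied little at 117 ± 9.48 units. The glucocorticoid receptor *Nr3c1* was at 49.9, 82.0 and 88.8 units and *Rara* at 64.1, 37.9 and 48.8 units. *Nr3c2*, the mineralocorticoid receptor, was the lowest listed at 0, 0.974 and 0.236 units.

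Receptor tyrosine kinases had 25 of 38 members listed and a median of 20.8 units. *Axl*, the receptor for GAS6, led at 717, 323 and 316 units (rank 391). *Met*, the receptor for hepatocyte growth factor, was at 299.8, 279.8 and 344 units and varied little. *Igf1r*, the receptor for insulin-like growth factors, was at 171, 274 and 178 units, and the collagen receptor *Ddr2* at 228, 182 and 134 units. *Ryk*, which binds Wnt ligands, was at 68.3, 223 and 119.5 units. *Egfr* was far lower at 6.43, 6.64 and 7.90 units, and *Erbb3*, the kinase-poor partner of ERBB2, was at 4.57, 1.83 and 0 units. The lowest listed was *Ror1* at 0.508, 0.731 and 1.297 units. Ligands and receptors of 1 pair could differ in level, since *Hbegf*, a ligand of EGFR, was at 164, 93.5 and 122 units.

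The receptor of IL-17A is made of the IL17RA and IL17RC chains. *Il17ra* was at 63.8, 35.5 and 36.2 units (45.2 ± 16.1, rank 3991), above the median of all genes in each library. *Il17rc* was lower at 12.7, 9.68 and 10.02 units (rank 7850). *Il17re*, the chain that with IL17RA binds IL-17C, was at 3.21, 10.1 and 10.4 units, and *Il17rd* was at 0, 1.70 and 3.06 units. *Il17rb* was not analysed here. Replicate 1 was highest for *Il17ra* and lowest for *Il17re* and *Il17rd*.

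Other cytokine receptors followed. The tumor necrosis factor receptor *Tnfrsf1b* was highest of 35 listed at 34.2, 166 and 112 units, and *Tnfrsf1a* was at 14.4, 68.3 and 62.4 units. Both were lowest in replicate 1. The interferon receptor chain *Ifnar2* was at 117, 83.0 and 110.2 units and the lymphotoxin receptor *Ltbr* at 129, 81.7 and 92.5 units. *Il4ra*, the chain shared by the receptors of IL-4 and IL-13, had 64.8, 30.3 and 39.5 units, and *Il22ra1* was at 0 in all 3 libraries. For TGF-beta and BMP, *Bmpr1a* was highest at 104, 58.4 and 59.8 units and *Tgfbr2* was at 39.6, 35.9 and 33.6 units. *Tgfbr1*, the kinase that TGFBR2 activates, was at 25.0, 20.4 and 14.6 units. Among integrins *Itgb1* ranked 140, with the alpha chain *Itga3* at 443, 270.4 and 278 units and *Itgav* at 157, 61.3 and 82.7 units. Chemokine receptors were low, led by the scavenging receptor *Ackr3* at 12.9, 29.6 and 26.4 units, and *Cxcr2*, a receptor of neutrophil chemokines, was at 0.338, 0.244 and 1.53 units. *Cxcr4* was not analysed here.

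Among ligands, a few genes were abundant, and medians were 7.11 units over 24 listed interleukins and related ligands and 2.96 units over 19 chemokines. *Mif*, macrophage migration inhibitory factor, was at 1157, 1934 and 2329 units (rank 60), with 37.7% of its 3′ windows shared with other genes. *Cxcl5*, a chemokine that attracts neutrophils, was at 319, 420.5 and 357 units (rank 505). *Cxcl1*, of the same group, was at 24.7, 46.9 and 23.7 units and *Cxcl2* at 4.57, 1.46 and 3.18 units. *Cxcl16*, a chemokine anchored in the membrane, was at 100.5, 46.1 and 72.3 units, and *Cx3cl1*, also anchored, at 9.98, 42.1 and 39.8 units. *Ccl5*, which attracts T cells, was at 29.1, 16.7 and 28.8 units. *Ccl2*, a monocyte chemokine, had 1 read in replicate 3 and none in the others. The bone and immune protein *Spp1* was at 89.9 ± 6.11 units, and *Tslp*, an epithelial cytokine, at 46.7, 88.4 and 82.6 units. *Csf1*, which sustains macrophages, was at 82.6, 78.3 and 55.8 units, and *Il23a*, a subunit of IL-23, at 71.2, 32.6 and 40.3 units. *Csf3*, the gene for granulocyte colony-stimulating factor, was uneven at 39.2, 1.64 and 3.18 units, a mean of 14.7 that became 2.41 without replicate 1. *Csf2* had 1 read in replicate 1 and none in the others. *Il6* and *Tnf* were at 0 in all 3 libraries, which allows up to 0.508, 0.183 and 0.354 units. *Il17a* was not analysed here.

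**Figure D5:**
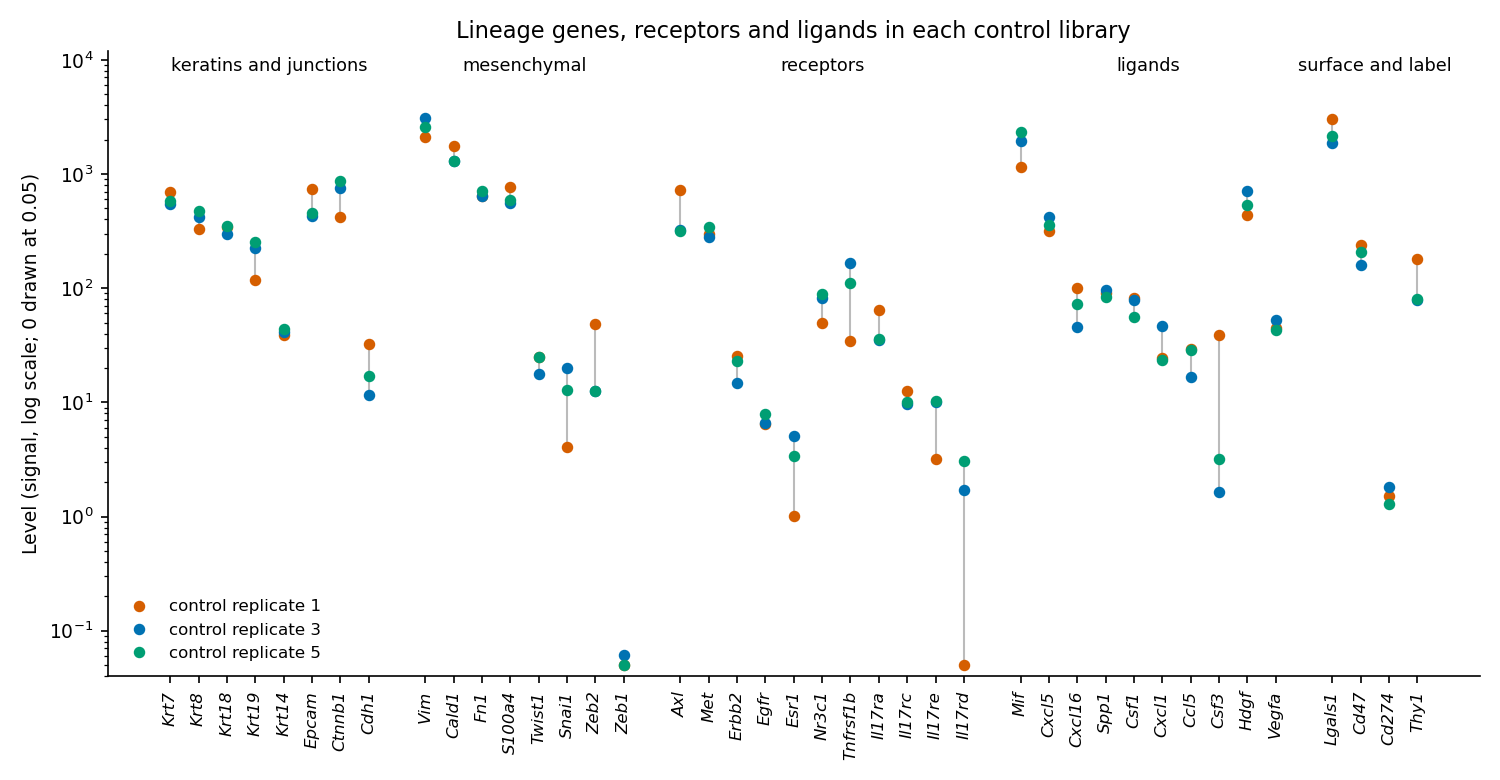
Points show the level (log axis, units, 0 drawn at 0.05) of selected lineage genes, receptors, ligands and surface genes in control replicates 1 (orange), 3 (blue) and 5 (green), joined by a line from the lowest to the highest. *Krt18* and *Met* lie close together, while *Csf3* and *Il17rd* have replicate 1 far from the others.

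Growth factor genes were led by *Hdgf* at 441, 705 and 533 units and by *Grn*, the granulin precursor, at 766, 216 and 172 units (mean 385, or 194 without replicate 1). *Wnt7b* was the most abundant Wnt ligand listed at 194, 141 and 161 units. *Vegfb* was at 199, 114 and 117 units and the main angiogenic factor *Vegfa* at 45.0, 52.4 and 42.9 units. Of the TGF-beta ligands, *Tgfb3* (11.8, 46.0 and 54.3 units) exceeded *Tgfb1* (2.54, 0.913 and 1.77 units) in every library. *Egf* was at 0, 0 and 0.118 units and *Igf1* at 0 in all 3 libraries.

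Oncogenes had a median of 62.6 units over 55 listed. *Ccnd1*, the cyclin that starts the G1 phase with CDK4 and CDK6, led the oncogene list at 832, 1134 and 704 units (rank 176). The small GTPase *Rhoc* was at 1212, 368 and 453 units (mean 678, or 410.5 without replicate 1) and *Rac1* at 285, 575 and 576 units. The chromatin protein *Hmga1* was at 322, 777 and 612 units, with 62.1% of its 3′ windows shared, and *Hmga2* was at 506, 307 and 305 units. *Nras* was at 102, 219.99 and 135 units. *Myc* was higher in replicate 1, with 105, 27.6 and 23.2 units, a mean of 51.9 that became 25.4 without that library. *Ccnd3* was the lowest listed oncogene at 0, 0.670 and 1.297 units.

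Tumor suppressors had a median of 55.2 units over 45 listed members of 49. *Ndrg1*, which is induced by low oxygen and stress, was highest at 257, 796 and 950.4 units. *Pbrm1*, a subunit of a chromatin remodeler, was at 359, 513 and 451 units, and the histone methyltransferase *Setd2* was steady at 211 ± 15.4 units. The kinase inhibitor *Cdkn1b* was at 69.2, 200.4 and 179 units. *Trp53*, the p53 gene, was close to the bottom of the list at 2.20, 1.70 and 3.30 units (rank 10392), from 13 to 28 reads in replicates 1 and 5 and 28 in replicate 3. Its target *Cdkn1a* was steady at 29.7 ± 1.40 units. *Palb2*, a partner of BRCA2, was the lowest listed at 1.52, 1.34 and 3.18 units. *Cdkn2a* was not analysed here.

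Proliferation genes were all listed (36 of 36), with a median of 112 units. *Top2a*, the topoisomerase that untangles chromosomes and is a target of doxorubicin, was at 2250.2, 1710.2 and 1793 units (rank 56). *Hmgb2*, a chromatin protein of dividing cells, was at 2123, 1216 and 1098 units and the centromere protein *Cenpf* at 737, 1008 and 865 units. *Mki67*, the Ki-67 marker, was at 671 ± 49.2 units. *Mcm7*, a subunit of the replicative helicase, was at 1208, 331 and 358 units (mean 632, or 344 without replicate 1), whereas *Mcm2* of the same helicase was at 7.44, 1.096 and 0.825 units. *Rrm2*, a subunit of ribonucleotide reductase, was the lowest member by the mean at 2.20, 4.26 and 2.24 units, although *Mcm2* was lower in replicates 3 and 5.

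Promoters of proliferation genes are shown beside the share of all promoters that hold the same letters, with a value for 30 of 36 members. CCAAT, the letters known for binding by the factor NF-Y, was searched on both strands (as CCAAT or ATTGG) in RefSeq promoters of build GRCm38.p6, from 250 bases before to 50 after the start. Here and below, the share of promoters with a match was taken for each gene, and percents of promoters are means of these shares over genes. CCAAT occurred in 83.3% of promoters of proliferation genes and in 39.2% of promoters over all 10085 genes with one. GGGCGG, searched likewise, occurred in 83.3% and 63.3%, and TATAAA in 0% and 7.29%, and these can share letters at an edge with CCAAT or ATTGG. A match is a description, not a site or a cause. With ACGTG (below), 4 motifs were searched in 14 lists with enough promoters, and the pairs of list and motif printed were picked after the shares were seen. Shares not followed further include TATAAA in 35.3% of promoters of MHC class I genes and 31.8% of those of antioxidant genes, and CCAAT in 60.9% of those of citric acid cycle genes. The stretches run from 130 bases before to 10 after the start, with CCAAT or ATTGG in capitals, for *Top2a* (chr11:99024180-99024319, minus strand), *Hmgb2* (chr8:57511713-57511852, plus strand) and *Cenpf* (chr1:189688077-189688216, minus strand), the 3 most abundant members with a match there.
Top2a: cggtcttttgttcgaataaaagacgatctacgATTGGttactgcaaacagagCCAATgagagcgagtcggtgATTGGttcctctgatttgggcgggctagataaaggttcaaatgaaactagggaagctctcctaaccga
Hmgb2: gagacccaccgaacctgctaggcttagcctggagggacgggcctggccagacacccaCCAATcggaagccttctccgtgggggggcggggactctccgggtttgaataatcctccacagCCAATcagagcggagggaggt
Cenpf: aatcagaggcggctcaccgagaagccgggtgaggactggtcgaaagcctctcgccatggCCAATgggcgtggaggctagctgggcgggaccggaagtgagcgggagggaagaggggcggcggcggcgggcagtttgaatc

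Glycolysis genes were the most abundant metabolic list, with 21 of 24 members listed and a median of 190 units. *Pgam1*, phosphoglycerate mutase, led at 3955, 2656 and 3562 units (rank 24), with 44.0% of its 3′ windows shared with other genes. Its pseudogene *Gm9794* ranked 27 at 3212, 2586 and 3316 units. *Aldoa*, aldolase, was at 1959, 1829.5 and 2232 units and *Pkm*, pyruvate kinase, at 1904, 1640.3 and 1953 units. *Ldha*, which makes lactate from pyruvate, varied little at 1014 ± 27.4 units (rank 150). *Pgk1*, phosphoglycerate kinase, was at 813, 1515 and 1952 units and the hexokinase gene *Hk2* at 185, 264 and 312 units. *Gapdh*, often used as a reference gene, ranked 1048 at 48.4, 289 and 233 units, with 43.2% of its windows shared. *Slc2a1*, the main glucose transporter of many cells, was the lowest member at 4.57, 1.77 and 0.589 units (mean 2.31, or 1.18 without replicate 1).

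ACGTG, the core letters that hypoxia-inducible factors and other factors bind, was searched in the same promoters on both strands (as ACGTG or CACGT), a motif added after the data were seen. It occurred in 48.4% of promoters over all 21 glycolysis genes and in 25.4% over the 10085 genes. The letters of both strands overlap in CACGTG. The promoters of *Pgam1* (chr19:41911741-41911880, plus strand), *Aldoa* (chr7:126799245-126799384, minus strand) and *Pkm* (chr9:59657097-59657236, plus strand) are shown as the 3 most abundant of the list with a match in the stretch, which is in capitals.
Pgam1: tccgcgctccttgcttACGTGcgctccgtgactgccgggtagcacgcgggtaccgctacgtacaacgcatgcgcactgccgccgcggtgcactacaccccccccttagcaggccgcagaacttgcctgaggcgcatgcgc
Aldoa: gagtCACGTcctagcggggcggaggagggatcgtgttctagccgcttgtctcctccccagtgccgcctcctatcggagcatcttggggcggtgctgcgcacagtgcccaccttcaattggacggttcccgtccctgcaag
Pkm: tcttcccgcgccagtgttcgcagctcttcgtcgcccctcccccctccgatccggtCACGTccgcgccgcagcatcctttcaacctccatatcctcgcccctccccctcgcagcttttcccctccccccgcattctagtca

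Citric acid cycle genes had a median of 71.1 units over 27 listed. *Mdh2*, mitochondrial malate dehydrogenase, was at 741, 326 and 371 units and *Sdhb*, a subunit of succinate dehydrogenase, at 249, 182 and 268 units. *Got2*, mitochondrial aspartate aminotransferase, was at 119.8, 209 and 223 units. Fumarase, encoded by *Fh1*, was at 6.26, 122 and 66.4 units and among the genes with the widest range. *Pcx*, pyruvate carboxylase, was the lowest member at 2.71, 0.974 and 1.77 units. In the pentose phosphate pathway, which makes NADPH and ribose, *Tkt* was at 536, 105 and 128 units (mean 257, or 117 without replicate 1) and *G6pdx*, its first enzyme, at 23.7, 40.2 and 49.3 units.

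Genes of lipid synthesis differed between libraries. The fatty acid desaturase *Scd2* was at 2369.6, 669 and 1009.7 units (mean 1349, or 839 without replicate 1), whereas *Fasn*, fatty acid synthase, was at 17.8, 5.66 and 8.37 units. *Acly*, which makes cytosolic acetyl-CoA, was at 206, 111 and 122 units, while *Fads1* was lowest in replicate 1 at 37.7, 114 and 105 units. Limits were set at a mean of at least 20 units and at least 30 reads in each library. Of 9 fatty acid synthesis genes above them, 6 were higher in replicate 1 than in the mean of the others (median log2 ratio 0.30). Over all genes above them, these values were 3249 of 6203 and 0.05. Of the 21 cholesterol synthesis genes, *Hmgcs1* led at 477, 269 and 287 units, followed by *Cyp51* at 485, 208 and 211 units. Cholesterol genes summed to 3150, 1621 and 1626 units, and 17 of the 19 with a mean of at least 20 units and at least 30 reads in each library were higher in replicate 1 than in the mean of the others. Their median log2 ratio of replicate 1 to the others was 0.90, beside 0.05 for all genes above those limits. For fatty acid oxidation, *Hadha* was at 218, 158 and 191 units and *Cpt1a*, which brings fatty acids into mitochondria, at 48.7, 25.4 and 36.0 units.

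In amino acid metabolism *Odc1*, the first enzyme of polyamine synthesis, was at 245, 446 and 282 units. The serine synthesis enzymes *Psat1* and *Phgdh* were at 189.6, 253 and 145 and at 67.0, 57.3 and 59.3 units. *Glud1*, glutamate dehydrogenase, was at 129, 234 and 195 units. In nucleotide synthesis *Paics*, an enzyme of purine synthesis, was the most abundant by the mean at 233, 2026 and 1072 units, lowest in replicate 1. *Rrm1*, the large subunit of ribonucleotide reductase, was at 242, 163 and 151 units. Antioxidant genes had a median of 71.5 units, led by the ferritin heavy chain *Fth1* at 689, 1269 and 1529.98 units, followed by *Sod1*, which removes superoxide, at 1251, 838 and 952 units. *Prdx1*, which reduces peroxides, was at 256, 875 and 953 units, and *Nqo1* was the lowest at 1.35, 1.64 and 3.30 units.

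Hypoxia genes were among the lists with the widest gap between libraries. Their sum was 1569 units in replicate 1, 4058 in replicate 3 and 4207 in replicate 5. Of 16 members above the limits, 1 was higher in replicate 1 than in the mean of the others, beside 3249 of 6203 over all. The median log2 ratio was -1.54, beside 0.05 over all. *Ddit4*, an inhibitor of mTOR signaling, was at 195, 833 and 996 units. *Bnip3l*, a mitophagy receptor, was at 146, 611 and 466 units and its relative *Bnip3* at 194, 200.3 and 261 units. *Car9*, a carbonic anhydrase of the cell surface, was at 20.6, 405 and 226 units, 19.6 times as high in replicate 3 as in replicate 1. The exception was *Hif1a*, the oxygen-regulated factor itself, with 221, 89.8 and 82.0 units. *Epas1*, which encodes HIF-2 alpha, was at 0, 0.426 and 0 units. The methods of the study give a confluency for these cultures, while the density of each culture and its oxygen supply were not analysed here.

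Matrix and protease genes had a median of 49.7 units over 45 listed. *Timp2*, an inhibitor of metalloproteinases, was highest at 1926, 645 and 848 units (mean 1139.6, or 747 without replicate 1). *Lamb1*, a laminin chain, was at 361, 519 and 564 units and the lysosomal protease *Ctsl* at 279.98, 356 and 303 units. *Mmp9*, which degrades type IV collagen, was at 84.8, 349.9 and 444 units, lowest in replicate 1. *Ctsd*, cathepsin D, was at 445, 135 and 184 units. *Mmp14*, bound to the membrane, was at 194, 239.8 and 165 units, and *Timp3* was the lowest listed at 1.35, 0.244 and 0.589 units.

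Genes of antigen presentation by MHC class I were present at unequal levels, with a median of 18.0 units over 19 members. *Canx*, the chaperone calnexin, was at 982, 537 and 558 units and *B2m*, the light chain of MHC class I, at 423, 684 and 614 units. *Pdia3*, of the peptide-loading complex, was at 304, 277 and 395 units and *Tapbp*, which bridges that complex, at 353, 149 and 178 units. The heavy chain *H2-D1* was steady at 124 ± 3.83 units, while *H2-K1* was at 10.8, 101 and 51.0 units. Heavy chain genes resemble each other, so reads could be split between them. MHC class II genes were low, with *Cd74*, the invariant chain, highest at 17.6, 3.59 and 11.4 units and *H2-Ab1* at 1.02, 0.304 and 0.471 units. Promoters of the class I list, with a value for 17 of 19 members, held CCAAT in 82.4%, beside 39.2% over all. The stretches of *Canx* (chr11:50325664-50325803, minus strand), *B2m* (chr2:122147557-122147696, plus strand) and *Pdia3* (chr2:121413772-121413911, plus strand) are the 3 most abundant with a match and are marked and placed like those of *Top2a*.
Canx: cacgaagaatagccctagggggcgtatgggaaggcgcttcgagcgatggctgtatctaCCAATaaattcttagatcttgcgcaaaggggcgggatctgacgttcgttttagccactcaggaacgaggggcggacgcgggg
B2m: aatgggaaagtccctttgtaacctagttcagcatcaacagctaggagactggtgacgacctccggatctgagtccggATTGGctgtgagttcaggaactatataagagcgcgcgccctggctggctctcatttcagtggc
Pdia3: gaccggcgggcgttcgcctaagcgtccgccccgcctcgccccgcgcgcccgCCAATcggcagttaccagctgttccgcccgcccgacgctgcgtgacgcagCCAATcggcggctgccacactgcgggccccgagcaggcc

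Ligands that restrain immune cells ranged widely in level. *Lgals1*, galectin-1, was at 3007, 1859.6 and 2162 units (rank 47) and *Lgals3*, galectin-3, at 656, 426 and 649 units. *Cd47*, the signal against phagocytosis, was at 237, 159 and 206 units. *Nectin2* was at 54.6, 72.4 and 68.2 units and *Nt5e*, the enzyme CD73 that makes adenosine, at 44.5, 66.0 and 80.6 units. *Cd274*, the PD-L1 gene, was at 1.52, 1.83 and 1.297 units (rank 10938), above the floor of every library. Of 29 interferon signaling genes all were listed, with a median of 22.2 units. *Jak1*, a kinase of the interferon receptors, led at 435, 269 and 359 units, followed by the factor *Irf1* at 143, 208 and 270.05 units. *Jak2* was at 113, 149 and 191 units and *Irf2* at 133, 116 and 125 units. *Mx1* was the lowest at 0.169, 0 and 0.471 units. Among drug response genes, *Top1* was at 478, 718 and 582 units and *Por*, which passes electrons to cytochromes P450, at 339, 281 and 347 units. *Top2b* was steady at 183 ± 16.0 units and *Xiap*, an inhibitor of caspases, at 174 ± 23.4 units. The drug efflux pump *Abcb1b* was at 252, 84.7 and 85.9 units (mean 141, or 85.3 without replicate 1) and its relative *Abcb1a* at 0.677, 5.66 and 2.24 units. *Abcc10* was the lowest at 0, 0.426 and 0.236 units.

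Long noncoding RNAs of the list were led by *Malat1* and *Gas5*, a host of small nucleolar RNAs, at 691, 495 and 609 units. *Snhg1* was at 34.5, 368 and 208 units and *Snhg8* at 9.30, 242 and 92.6 units, both lowest in replicate 1. The imprinted *Kcnq1ot1* was at 77.8, 261 and 164 units and *Snhg3*, the lowest, at 3.38, 1.28 and 1.297 units. Of 10 members above the limits 2 were higher in replicate 1 than in the mean of the others, beside 14 of 32 genes typed as long noncoding RNA and 3249 of 6203 over all. Among imprinted genes *Igf2r*, which clears IGF2, was at 167, 101 and 155 units, and *Grb10* had 1 read in replicate 1 and none in the others.

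The range across libraries was measured over 6203 genes with a mean of at least 20 units and at least 30 reads in each. The highest value was 1.70 times the lowest at the median, and 1.17 times without replicate 1, over 6230 genes above the same limits in replicates 3 and 5. Over 2-fold ranges were found in 2274 genes (36.7%), and replicate 1 was the highest (1093) or the lowest (1158) library in 2251 of them (99.0%). Each gene has a highest and a lowest library, and replicate 3 was highest in 837 and lowest in 774. Replicate 5 was highest in 344 and lowest in 342. Among the 6203 genes, 96 (1.55%) differed by over 2-fold between replicates 3 and 5, against 2023 (32.6%) between replicates 1 and 3. The median SD of log2(value + 1) was 0.41 for genes of 20 to 100 units and 0.38 for 100 to 1000 units, or 0.16 and 0.13 without replicate 1.

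Families differed in how replicate 1 compared with the others. All 19 histone genes above the limits had more signal in it (median log2 ratio 1.78). How that signal follows the amounts of their transcripts was not tested. Ribosomal protein genes leaned the other way, with 21 of 81 higher and a median of -0.47. Over all genes above the limits, 3249 of 6203 were higher in replicate 1. The scaling itself moves these ratios, as the median over all 6203 genes was 0.05 with TMM and -0.05 by library totals. By totals the medians were 0.79 for cholesterol, -1.64 for hypoxia, 1.67 for histone and -0.57 for ribosomal protein genes, and no other scaling was tried. The shift is about the same for every gene. Limits that include replicate 1 favor genes high in it, and with limits on replicates 3 and 5 alone, an alternative added after the data were seen, 16 of 17 histone genes (1.64) and 16 of 18 cholesterol genes (0.87) were higher in replicate 1. Over all 6230 genes above those limits, 2981 were higher in replicate 1 and the median was -0.06. The widest ratio belonged to *Gm10012*, at 10.2, 708 and 210.4 units, 69.7 times as high in replicate 3 as in replicate 1. *Cox7c*, a subunit of cytochrome c oxidase, was at 19.3, 1007 and 298 units. *Snord49b*, a small nucleolar RNA, went the other way at 174, 3.78 and 17.4 units, and *Snord89*, also one, at 186, 7.98 and 13.7 units. The G protein beta subunit *Gnb2* was at 5.08, 187 and 109 units, and *Ndufb3*, of respiratory complex I, at 10.8, 251 and 105 units. Of 64 genes over 10-fold apart, 46 were lowest and 18 highest in replicate 1. *Rcn1*, a calcium-binding protein of the endoplasmic reticulum, was among the most even genes with a mean of at least 100 units, at 136, 137 and 137 units.

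Coding length was short among the most abundant genes, 45 of which encode ribosomal proteins. It had a median of 624 bases over 87 of the 100 most abundant genes with a value, beside 1399.5 bases over 12122 genes. Ribosomal protein genes had a median of 453 bases, and 985.5 bases was the median of the 500 most abundant genes. Of the 55 genes among the 100 most abundant that are not ribosomal protein genes, 42 had a coding length, which is under 80%. Over those 42 alone the median was 979.5 bases. Promoters were found for 65 of the 100 most abundant genes, under the 80% required, so a check of promoters by level is void. The shares over all 10085 genes, printed above for comparison, rest on 76.3% of listed genes, which is also under 80%.

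Many abundant genes also share their 3′ ends with other genes. Of the 100 most abundant, 78 had at least 1 stretch of 75 bases, the length of a read, in the last 400 bases of a transcript that also occurs in the transcript of another gene, beside 2525 of 13081 (19.3%) over all. How the authors treated reads with several matches is not given in the sources used here, and the level of such genes is uncertain. *Actg1*, gamma actin, was at 198, 15.5 and 22.9 units, with 37.5% of windows shared (mean 78.9, or 19.2 without replicate 1), while *Actb* had 0.148% shared. Among genes over 2-fold apart between libraries 24.4% had a shared window, against 20.4% of those within 2-fold, a comparison added after the data were seen.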

How the data were processed

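Cultured 4T1-Thy1.1 cells were lysed in the well, RNA was purified on spin columns, and 3' mRNA libraries were sequenced as single 75 base reads. The authors ran FastQC and Trimmomatic, aligned the reads to mm10 with STAR 2.6, obtained counts from featureCounts (Rsubread 1.30.5) and scaled the counts by TMM. The deposited values are a signal, the reads on a gene relative to a scaled library size. They were whole multiples of the value of 1 read in every control library (100% within 0.01 reads), which gave the reads back. Settings for trimming, multi-mapped reads and strand are not given in the sources used here.

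The control columns were used (3 of 13), and the treated ones were not read. Of 13223 entries, 1 identical repeat was dropped, and 17 names stored as dates were kept as listed. There is 1 group, so no test was made. Means, SDs (n = 3), ranks, shares, ranges and counts were computed with python 3.11.15, numpy 2.4.6, pandas 2.3.3, scipy 1.17.1 and matplotlib 3.10.9, after tests on simulated data. Named genes were the 30 most abundant, the 5 highest members and the lowest detected member of each of 45 lists, members that a list is about (among them *Esr1*, *Pgr*, *Erbb2*, *Trp53*, *Thy1*, *Cd274* and IL-17 receptor genes), the 15 with the widest and the 5 with the narrowest range. Genes and lists were chosen with earlier results of these data known. Promoters are those of RefSeq for GRCm38.p6. Coding lengths and transcript ends are from GENCODE models. Of 13222 genes, 13100 matched these by symbol. Alternatives changed the scaling, the average, the filters, the pseudocount of 1 and the libraries kept.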

Additional observations from a re-analysis of the deposited data

How the results depend on the processing

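No paired analysis was possible because there is 1 group and no test. Scaling by library totals moved 0 of 18 summary values, judged for counts by a limit of 1.5 times and otherwise by the spread between replicates. Of these values, 6 were shares of signal that a scaling of whole libraries cannot change. The same scaling moved 6 of 45 list medians and 11 of 288 named genes by more than the spread between replicates. The geometric mean gave a median level of 16.3 units. Without ribosomal protein and histone genes, the 100 most abundant genes held 22.8% of signal, the 1000 most abundant 59.4% and glycolysis genes 1.41%. In at least 1 library 2623 genes were at 100 units or more and 217 at 1000 or more, and by the mean 154 were at 1000 or more. With a mean of at least 50 units, 1277 genes were over 2-fold apart. For the 500 most abundant genes the median coding length was 985.5 bases and 51.8% had shared 3' windows.

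Leaving out each library in turn, with the limits set on the libraries that remained, gave a median ratio of highest to lowest of 1.17 to 1.61, 120 to 2057 genes over 2-fold apart (1.93% to 33.0%), a median SD of log2 values of 0.15 to 0.48 and a mean correlation of 0.903 to 0.982. The first 4 were lowest, and the correlation highest, without replicate 1. The means of 41 of 288 named genes moved by over 1.5 times without replicate 1, 27 without replicate 3 and 7 without replicate 5. List medians moved as much in 6, 1 and 0 of 45, in 6 of 45 with the median of the 3 libraries and in 12 of 42 with members at a mean of at least 1 unit. By library totals the median log2 ratio of replicate 1 to the others over 6203 genes went from 0.05 to -0.05, and the ratios of the cholesterol, hypoxia, histone and ribosomal protein genes kept their sign. They also kept it with limits set on replicates 3 and 5 alone (0.87, -1.54, 1.64 and -0.47), an alternative added after the data were seen, while the median over all genes became -0.06. Small nucleolar RNAs fell from 7 to 2 genes under those limits, so no ratio is given for them. Genes below 3 reads in every library cannot be told from 0 at this depth.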
